A study of Homo sapiens with 8 samples.

Results

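The genes examined were 10 hosts of small nucleolar RNAs, SNHG1, SNHG4, SNHG6, SNHG8, SNHG12, SNHG15, SNHG17, SNHG26, SNHG29 and GAS5, chosen by name from the 32066 genes of the deposited table. Of these 10 genes, 10 had a row and 10 passed the filter on low counts. The genes were proposed with the SOX11 and control values of these same libraries already known, so their fold changes are given as a description and support no further statement. RNA was sequenced from DU145, an established prostate carcinoma line derived from a brain metastasis. The SOX11 group was DU145 with exogenous overexpression of SOX11, a transcription factor of the SOX family (4 libraries), and the other group was control DU145 (4 libraries). Both were grown in the same serum-containing medium, and the labels do not give the vector, the number of clones or whether the libraries came from separate cultures, so the spread between them may be technical.

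Small nucleolar RNAs (snoRNAs) guide chemical modification of ribosomal RNA. Box C/D snoRNAs guide ribose methylation and box H/ACA snoRNAs guide pseudouridylation. In vertebrates most are cut from the introns of longer host transcripts. Some hosts encode ribosomal or translation proteins. Others, such as GAS5 and the SNHG genes, are noncoding, and several of their spliced RNAs are known to begin with a pyrimidine tract, as translation machinery mRNAs do, and to be removed by nonsense-mediated decay. GAS5 was first described for its accumulation in growth-arrested cells.

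RefSeq places 38 snoRNAs inside the 10 hosts, 24 of the box C/D class, 12 of the H/ACA class and the remainder without a family symbol. GAS5 holds 11 of them and SNHG1 holds 9. SNHG6, SNHG8, SNHG15 and SNHG26 hold 1 each. GENCODE 29 annotates 26 snoRNA identifiers on the strand of these hosts and 0 inside GAS5. The snoRNAs below are examples from the hosts, taken from the GENCODE 29 transcripts (GRCh38). SNORD93 and SNORD99 lie in annotated introns, and the others lie within the pooled exons of the annotated host transcripts. Capitals mark the box motifs TGATGA (box C, searched in the first 20 bases) and CTGA (box D, last 20 bases) of C/D snoRNAs, and ACA in the last 8 bases of H/ACA snoRNAs. Only exact matches are marked, so SNORD93 and SNORD99 show no box C. Of the host snoRNA sequences searched, 6 of 12 C/D sequences had both motifs and 9 of 13 H/ACA sequences had ACA.
SNORD27 (SNHG1, chr11:62855012-62855083, minus strand): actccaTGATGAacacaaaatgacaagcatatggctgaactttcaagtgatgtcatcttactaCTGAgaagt
SNORD49A (SNHG29, chr17:16440036-16440106, plus strand): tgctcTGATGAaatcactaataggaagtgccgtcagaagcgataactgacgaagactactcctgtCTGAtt
SNORD65 (SNHG29, chr17:16441226-16441298, plus strand): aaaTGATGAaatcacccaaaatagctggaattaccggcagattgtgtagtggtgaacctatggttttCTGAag
SNORD93 (SNHG26, chr7:22856613-22856686, plus strand): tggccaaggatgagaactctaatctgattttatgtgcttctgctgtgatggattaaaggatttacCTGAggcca
SNORD99 (SNHG12, chr1:28578749-28578822, minus strand): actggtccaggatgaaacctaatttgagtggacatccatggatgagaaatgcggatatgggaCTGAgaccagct
SNORA9 (SNHG15, chr7:44985378-44985510, minus strand): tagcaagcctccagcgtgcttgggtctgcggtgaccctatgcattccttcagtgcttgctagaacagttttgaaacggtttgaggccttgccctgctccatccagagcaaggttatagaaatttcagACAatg
SNORA24 (SNHG8, chr4:118279190-118279320, plus strand): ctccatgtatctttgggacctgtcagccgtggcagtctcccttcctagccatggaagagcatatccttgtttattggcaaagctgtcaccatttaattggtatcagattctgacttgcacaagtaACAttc

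The start regions of the hosts were read from RefSeq promoters (GRCh38.p14), which were found for 8 of the 10 genes. A tract was defined as a C followed by at least 4 further C or T bases on the transcribed strand, beginning within 5 bases of the RefSeq start. It was present in 4 of the 8 hosts, SNHG4, SNHG8, SNHG12 and SNHG17, against 21.1% of all 35116 promoters. It was present in 26 of 54 promoters of listed protein-coding snoRNA hosts, and in 10 of 25 promoters of other listed noncoding hosts. The hexamer CACGTG, which reads the same on both strands, was found in 0 of the 8 promoters of 300 bases, against 7.26% of all promoters. RefSeq gives 1 start per gene, and these matches are a description of letters at that start. The RefSeq start of GAS5, 173869045, lies outside its GENCODE 29 gene, 173863900 to 173868882. That of SNHG12, 28581873, lies inside its GENCODE 29 gene, 28578538 to 28583132. Other starts were not read, so a gene without the tract here may have it elsewhere. The 50-base windows below, from 20 bases before the start, show the tract in capitals for the hosts that have it, and SNHG1 and SNHG29, which do not.
SNHG4 (chr5:139274081-139274130, plus strand): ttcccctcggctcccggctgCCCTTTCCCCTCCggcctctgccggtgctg
SNHG8 (chr4:118278742-118278791, plus strand): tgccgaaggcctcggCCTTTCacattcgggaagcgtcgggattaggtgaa
SNHG12 (chr1:28581844-28581893, minus strand): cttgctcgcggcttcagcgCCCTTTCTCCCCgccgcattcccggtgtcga
SNHG17 (chr20:38435299-38435348, minus strand): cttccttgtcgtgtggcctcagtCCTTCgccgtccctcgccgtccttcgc
SNHG1 (chr11:62855856-62855905, minus strand): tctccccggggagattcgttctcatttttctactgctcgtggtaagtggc
SNHG29 (chr17:16438967-16439016, plus strand): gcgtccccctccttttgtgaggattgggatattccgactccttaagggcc

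Library totals ran from 15309037 to 16740516 counts in the SOX11 libraries and from 14641250 to 18706095 in the control libraries. The check of the labels was SOX11 itself, with 303 to 317 counts in the SOX11 libraries and 0 in each of the 4 control libraries. Levels below are CPM, counts scaled to the library total after TMM normalization of edgeR, and log2 fold changes are SOX11 minus control from edgeR with their standard error (SE). A gene is said to be called, or to have risen or fallen, at an adjusted p below 0.05 over all 15665 tested genes in edgeR's quasi-likelihood test.

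In SOX11-expressing cells 8 of the 10 host genes were called lower and 0 higher, against 9.67% of all tested genes called lower and 10.3% called higher. Since the genes were chosen with this contrast known, nothing is read from that share. The falls were small. In bulk RNA, fewer cells with a transcript and less of it per cell cannot be told apart. Across the 8 called genes the log2 fold change lay between -0.25 (SNHG17) and -0.13 (SNHG6). The median over the 10 genes was -0.16, beside 0.00 over all tested genes. Summed over the 10 genes, the level was 1041 ± 16.8 CPM in SOX11 libraries and 1147 ± 26.0 CPM in control libraries (SD, n = 4 each), a ratio of 0.907. The genes took 0.103% to 0.107% of all counts in SOX11 libraries and 0.110% to 0.116% in control libraries. The CPM of the groups did not overlap for 6 of the 10 genes, against 21.1% of all tested genes.

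**Figure D1:**
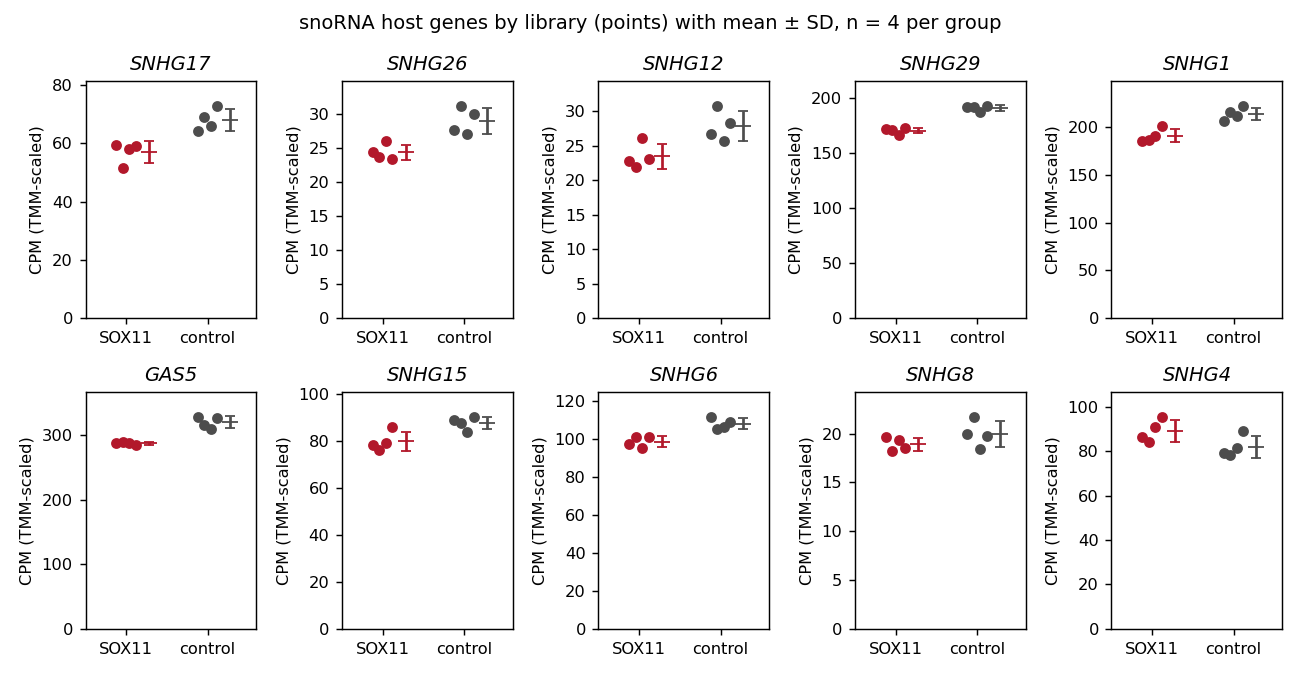
TMM-scaled CPM of each host gene (vertical axes from 0) in the 4 SOX11 libraries (red) and the 4 control libraries (grey), with the mean ± SD beside the points, ordered by fold change. SNHG17, SNHG26, SNHG29, SNHG1, GAS5 and SNHG6 do not overlap between the groups, and SNHG4 is the gene with a higher mean in SOX11 libraries.

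GAS5 and SNHG1 carry the most box C/D snoRNAs of the 10 hosts. GAS5 (ENSG00000234741, chromosome 1, 173863900 to 173868882, minus strand) had 289, 290, 288 and 285 CPM in SOX11 libraries, against 328, 316, 310 and 328 CPM in control libraries. All 4 SOX11 values lay below all 4 control values. The coefficient of variation of GAS5 was 0.785% in SOX11 libraries and 2.80% in control libraries. The SOX11 value is below the counting noise of 4376 to 4910 counts, so it does not show unusually even expression. The log2 fold change of GAS5 was -0.15 ± 0.0303 SE, a level 10.1% below control. SNHG1 (ENSG00000255717, chromosome 11, 62851988 to 62855914, minus strand) had 185, 186, 191 and 201 CPM in SOX11 libraries, against 206, 216, 211 and 221 CPM in control libraries. The groups stood apart, with SOX11 replicate 4 closest to the control values, and the log2 fold change was -0.16 ± 0.0339 SE.

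SNHG29 (ENSG00000175061, chromosome 17, 16438822 to 16478678, plus strand), named LRRC75A-AS1 in GENCODE 29, hosts SNORD49A, SNORD49B and SNORD65. It had 172, 171, 167 and 173 CPM in SOX11 libraries, against 192, 192, 187 and 192 CPM in control libraries. The groups did not overlap and varied little, and the log2 fold change was -0.16 ± 0.0315 SE. SNHG6 (ENSG00000245910, chromosome 8, 66921684 to 66926398, minus strand), host of SNORD87, had 97.0, 101, 95.2 and 101 CPM in SOX11 libraries, against 111, 105, 106 and 109 CPM in control libraries. Its groups did not overlap either, at a log2 fold change of -0.13 ± 0.0367 SE. SNHG26 (ENSG00000228649, chromosome 7, 22854178 to 22861579, plus strand), host of SNORD93, had 24.4, 23.7, 26.0 and 23.3 CPM in SOX11 libraries, against 27.6, 31.1, 27.1 and 29.9 CPM in control libraries. The groups did not overlap and the log2 fold change was -0.25 ± 0.0606 SE.

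The hosts of H/ACA snoRNAs included the largest and the smallest differences. SNHG17 (ENSG00000196756, chromosome 20, 38420588 to 38435353, minus strand), host of the SNORA71 group, had 59.3, 51.6, 58.1 and 59.0 CPM in SOX11 libraries, against 64.3, 69.0, 65.9 and 72.6 CPM in control libraries. The groups did not overlap, SOX11 replicate 2 was the lowest library, and the log2 fold change was -0.25 ± 0.0487 SE. SNHG12 (ENSG00000197989, chromosome 1, 28578538 to 28583132, minus strand) hosts H/ACA snoRNAs and the C/D snoRNA SNORD99. It had 22.8, 21.9, 26.1 and 23.1 CPM in SOX11 libraries, against 26.7, 30.7, 25.7 and 28.3 CPM in control libraries. The highest SOX11 library, replicate 3, lay above the lowest control library, replicate 3, and the log2 fold change was -0.25 ± 0.0657 SE. Without control replicate 2 it was -0.19 and no longer called (edgeR adjusted p = 0.0534).

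SNHG15 (ENSG00000232956, chromosome 7, 44983023 to 44986961, minus strand), host of SNORA9, had 78.5, 76.4, 79.3 and 85.9 CPM in SOX11 libraries, against 88.9, 88.0, 84.0 and 90.3 CPM in control libraries. SOX11 replicate 4 lay above control replicate 3, and the log2 fold change was -0.13 ± 0.0413 SE. Its call was lost without SOX11 replicate 1 (edgeR adjusted p = 0.0502), SOX11 replicate 2 (0.0580), SOX11 replicate 3 (0.0512) or control replicate 4 (0.0623). SNHG8 (ENSG00000269893, chromosome 4, 118278709 to 118279823, plus strand), host of SNORA24, had 19.6, 18.2, 19.3 and 18.5 CPM in SOX11 libraries, against 19.99, 21.7, 18.5 and 19.8 CPM in control libraries. The groups overlapped and the gene was not called, at a log2 fold change of -0.08 ± 0.0667 SE.

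SNHG4 (ENSG00000281398, chromosome 5, 139274102 to 139284899, plus strand), host of SNORA74A and SNORA74D, was the exception in direction. It had 86.5, 84.0, 91.0 and 95.3 CPM in SOX11 libraries, against 79.0, 78.2, 81.3 and 89.2 CPM in control libraries. Control replicate 4 lay among the SOX11 values, and the gene narrowly missed the threshold (log2 fold change 0.12 ± 0.0451 SE, edgeR adjusted p = 0.0507). It passed without SOX11 replicate 2 (0.0161) or control replicate 4 (0.0108). The annotated exons of SNHG4 share 626 bases, 14.0% of its exon length, with 1 of the 2 Ensembl genes named MATR3 on the same strand, so its count is uncertain. The 2 MATR3 genes also share 5141 exon bases with each other, and how reads in shared exons were counted is not given. Their rows hold 10 and 347 counts over all 8 libraries, which is therefore no measure of MATR3 RNA.

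**Figure D2:**
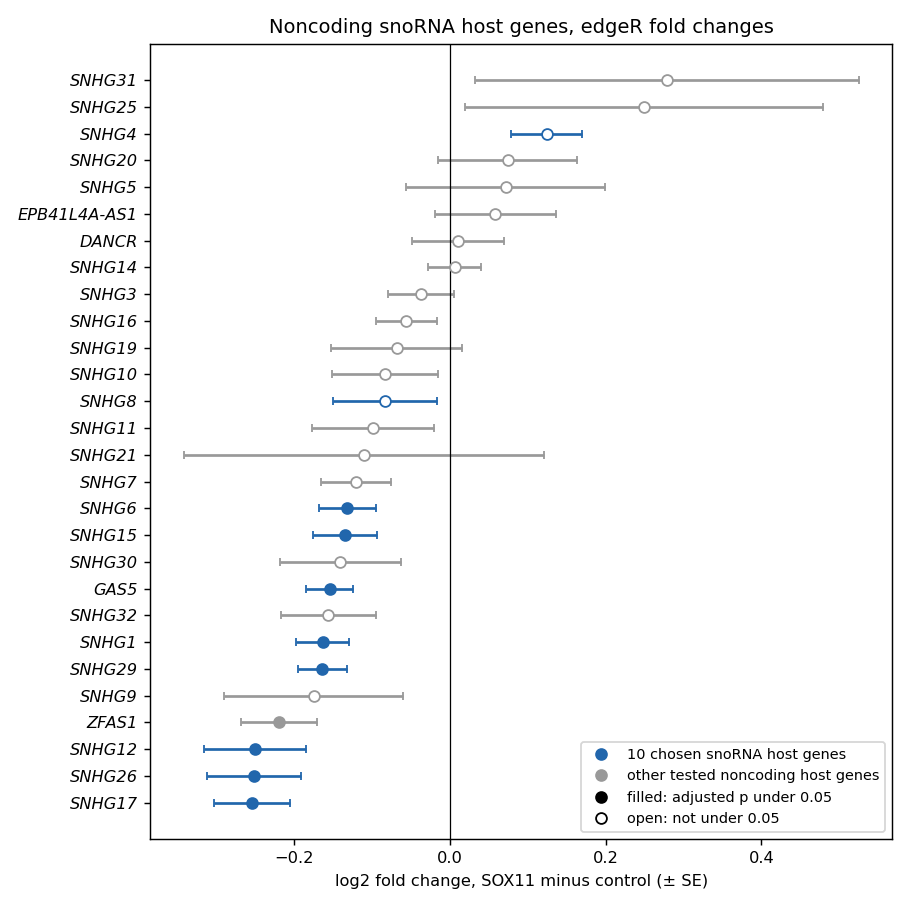
Log2 fold change, SOX11 minus control, with its SE for the 10 chosen hosts (blue) and the other tested noncoding hosts (grey), filled where the adjusted p is under 0.05. The 8 filled blue genes lie between -0.25 and -0.13, ZFAS1 is the filled grey gene, and SNHG31 and SNHG25, the 2 highest values, have the wide errors of genes near 1 CPM.

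Set against length, the hosts formed an order with gaps. CPM per kilobase of merged annotated exon was 79.3 ± 0.623 for GAS5 and 78.9 ± 2.18 for SNHG6 in SOX11 libraries (SD, n = 4). These 2 did not differ beyond their spread there, nor in control libraries, at 88.3 ± 2.47 for GAS5 and 86.5 ± 2.24 for SNHG6. SNHG1 followed at 50.8 ± 1.87 CPM per kilobase in SOX11 libraries and 56.8 ± 1.73 in control libraries. SNHG29 was at 45.4 ± 0.713 in SOX11 libraries and 50.8 ± 0.631 in control libraries. SNHG15 (21.9), SNHG8 (20.5) and SNHG4 (19.96) came next in SOX11 libraries, where the library values of the genes overlapped. In control libraries SNHG15 was at 24.1, SNHG8 at 21.6 and SNHG4 at 18.3. There all SNHG15 values lay above all SNHG4 values. The lowest in SOX11 libraries were SNHG17 (13.6), SNHG26 (9.27) and SNHG12 (5.51). The merged exons include retained introns, which 49 of the 141 annotated transcripts of these genes carry, so a host with many such models looks less abundant on this scale.

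Counts for the snoRNAs themselves followed the annotation. Mature snoRNAs have no poly(A) tail, and the libraries were made from polyadenylated RNA, so such rows are not a measure of mature snoRNAs. Of the 26 snoRNA identifiers that GENCODE 29 annotates in the hosts, matched by Ensembl identifier, 5 had a row. SNORA16A, in SNHG12, is among them under both ENSG00000280498 and ENSG00000274582. A further row with the symbol SNORD27 has the identifier ENSG00000252128, which is a locus outside SNHG1. All 5 lay in introns. None of the 17 identifiers that lie wholly within merged host exons was listed. Over all annotated hosts the numbers were 0 of 142 in exons and 158 of 420 in introns. The 5 rows were SNORA71B (233 counts over 8 libraries), SNORD99 (144), SNORD93 (82), SNORA74D (39) and SNORA74A (26). SNORD99 had 18, 24, 20 and 14 counts in SOX11 libraries, against 21, 24, 11 and 12 in control libraries, while its host SNHG12 had 3293 counts in all. SNORA71B had 25, 31, 40 and 21 counts in SOX11 libraries, against 23, 44, 16 and 33 in control libraries. The groups overlapped for both. At this depth no difference was detectable in the 3 that passed the filter, with log2 fold changes from -0.02 (SNORA71B) to 0.12 (SNORD99).

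Among 18 other tested noncoding hosts, 1 was called lower and 0 higher, against 9.67% of all tested genes lower and 10.3% higher. That gene was ZFAS1, host of C/D snoRNAs. It had 37.6, 40.1, 40.2 and 41.9 CPM in SOX11 libraries, against 45.7, 46.1, 46.4 and 47.8 CPM in control libraries, with no overlap (log2 fold change -0.22 ± 0.0482 SE). The median log2 fold change of the 18 genes was -0.06, with 11 below 0. SNHG14, SNHG16 and SNHG3, which are among the more abundant of them, were not called. SNHG14, the long host of the Prader-Willi locus, was at 172 ± 4.99 CPM in SOX11 libraries and 172 ± 5.45 CPM in control libraries. SNHG16 was at 119 ± 0.541 CPM in SOX11 libraries and 123 ± 7.80 CPM in control libraries, and SNHG3 at 78.4 ± 3.79 and 80.4 ± 3.36 CPM in the same order. SNHG7, more abundant than SNHG3, was at 91.1 ± 4.11 CPM in SOX11 libraries and 98.9 ± 7.03 CPM in control libraries. SNHG7 (log2 fold change -0.12, edgeR adjusted p = 0.0574) and SNHG32 (-0.16, 0.0715) missed the threshold. Whether the 10 hosts differ from these 18 was not tested, because the 10 were chosen with their values known.

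Protein-coding hosts were read from a list and from the annotation. Of 54 listed and tested genes, 25 were called lower and 0 higher, against 9.67% of all tested genes lower and 10.3% higher. Their median log2 fold change was -0.08. This list, like the other lists here, was chosen with earlier results of these data known, so nothing is read from its share. Of the 25 ribosomal protein genes among them 16 were called lower, and of the 29 others 9 were. RPS12, a small-subunit ribosomal protein gene, had 592, 614, 594 and 612 CPM in SOX11 libraries, against 703, 677, 711 and 697 CPM in control libraries (log2 fold change -0.21 ± 0.0288 SE). RPL4 (-0.17) and RPL27A (-0.15), of the large subunit, and HSPA8 (-0.17), the constitutive HSP70 chaperone and host of several C/D snoRNAs, fell as well. Taking all 210 tested protein-coding genes that GENCODE 29 places around a snoRNA on the same strand, 44 were called lower (21.0%) and 21 higher (10.0%). Of 22 tested noncoding genes around a snoRNA outside the 10, 1 was called lower and 2 higher.

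**Figure D3:**
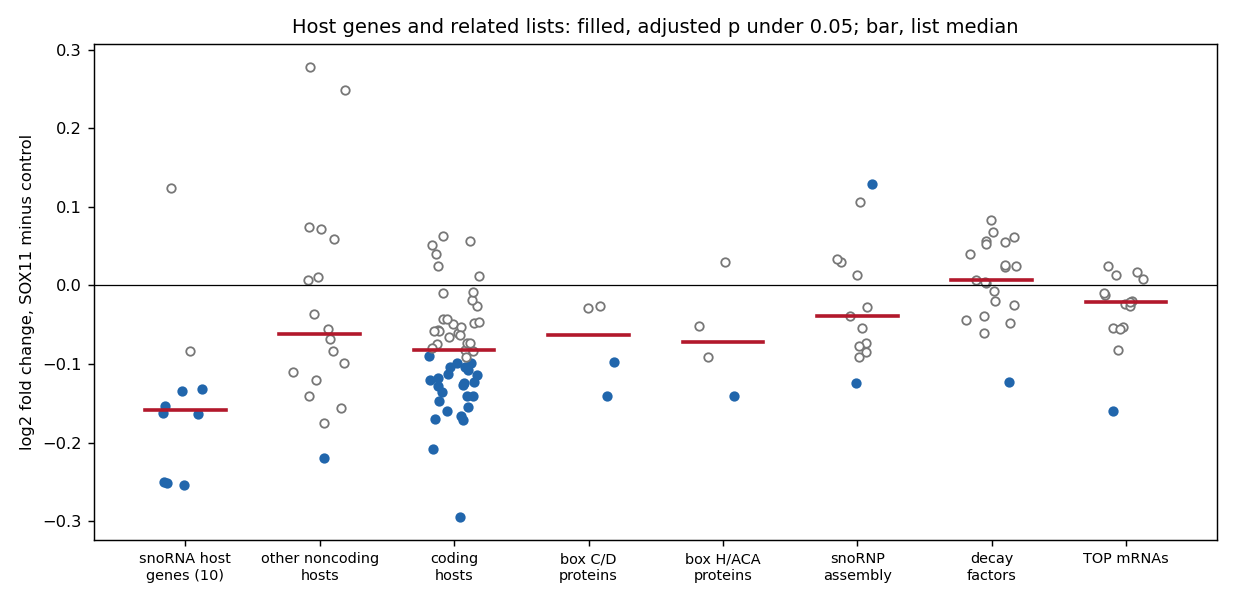
Log2 fold change of each tested gene in the 10 hosts and related lists (filled, adjusted p under 0.05; red bar, list median). The 10 hosts have a median of -0.16, the coding hosts -0.08, and the decay factors 0.01.

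Genes that make and carry snoRNA particles were read against the same shares, 9.67% of all tested genes lower and 10.3% higher. Of the 4 box C/D core proteins, 2 were called lower and 0 higher. NOP56, a scaffold of the C/D particle and itself a snoRNA host, was at 260 ± 10.1 CPM in SOX11 libraries and 287 ± 12.1 CPM in control libraries (log2 fold change -0.14 ± 0.0344 SE). NOP58 (-0.10) passed by a narrow margin (edgeR adjusted p = 0.04997) and was no longer called under 12 of 16 alternatives, with log2 fold changes from -0.12 to -0.08. The methyltransferase FBL (-0.03) and SNU13 (-0.03) were not called. Of the 4 H/ACA core proteins, 1 was called lower, NOP10, at 81.2 ± 1.80 CPM in SOX11 libraries and 89.6 ± 2.05 CPM in control libraries (log2 fold change -0.14). The pseudouridine synthase DKC1 (-0.09), NHP2 (0.03) and GAR1 (-0.05) were not. Among 13 assembly and trafficking factors, the nucleolar chaperone NOLC1 (-0.12) was called lower and the export adaptor PHAX (0.13) higher. Dropping each of the 8 libraries in turn removed the NOLC1 call 4 times and the PHAX call 6 times.

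Of 21 nonsense-mediated decay factors, the machinery that removes noncoding host RNAs, 1 was called lower and 0 higher, against 9.67% and 10.3% of all tested genes, with a median log2 fold change of 0.01. The called gene was GSPT1, the release factor eRF3a, at 212 ± 2.78 CPM in SOX11 libraries and 231 ± 7.996 CPM in control libraries (log2 fold change -0.12). Of 6 tested coding transcripts often used to report on decay, TBL2 (-0.19) and UPP1 (-0.31) fell and DNAJB2 (0.31) rose. Among 15 tested pyrimidine-tract mRNAs other than those of ribosomal proteins, 1 was called lower, the elongation factor gene EEF1B2 (-0.16), itself a snoRNA host, against 9.67% of all tested genes, and the median was -0.02. Of 10 genes of the mTOR pathway and its RNA-binding effectors, which control translation of such mRNAs, 3 were called higher and 0 lower, against 10.3% of all tested genes higher and 9.67% lower. They were the S6 kinase gene RPS6KB1, at 49.8 ± 1.08 CPM in SOX11 libraries and 41.2 ± 2.86 CPM in control libraries (log2 fold change 0.27), EIF4EBP2 (0.16) and TSC1 (0.14). TSC1 was no longer called without SOX11 replicate 1 or 3 or control replicate 2 or 4 (edgeR adjusted p from 0.0551 to 0.108). The list was not divided by the direction in which its genes act, so its counts give no direction for the pathway.

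Neighbouring genes were read beside the hosts. SLC3A2, the heavy chain of amino acid transporters, starts 188 bases from SNHG1 in the opposite direction. It had 216, 221, 220 and 209 CPM in SOX11 libraries, against 228, 238, 232 and 230 CPM in control libraries (log2 fold change -0.10 ± 0.0314 SE). The groups did not overlap, but the call was lost without SOX11 replicate 4 (edgeR adjusted p = 0.0749), control replicate 2 (0.0891) or control replicate 3 (0.0532). ZBTB37, which overlaps the GAS5 locus on the opposite strand, was at 44.6 ± 0.768 CPM in SOX11 libraries and 42.6 ± 1.69 CPM in control libraries and was not called. PRSS12 (-0.20), listed as a neighbour of SNHG8, was called lower, and dropping each library in turn removed that call 6 times of 8. Exons of SNHG6 overlap MCMDC2 by 365 bases and those of SNHG29 overlap LRRC75A by 452 bases, both on the opposite strand. The library kit keeps strand, but whether counting used strand is not given in the sources used here, so reads from these overlaps cannot be assigned with certainty. MCMDC2 (3.62 CPM in SOX11 libraries, 3.55 in control) and LRRC75A (0.633 and 0.629 CPM in the same order) were low.

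The hosts were also compared in how they varied around their group means, a measure that the choice of genes did not use. Over the 8 libraries the Pearson r of log2 CPM deviations had a median of 0.22 and a mean of 0.24 over 45 gene pairs. Of these pairs 35 were positive. The mean over all pairs of tested genes was 0.00. Library scaling holds that mean near 0, so it is no yardstick for the hosts. The pairs share libraries and library scaling, and the 8 values are deviations from 2 group means, so these are descriptions without a test. The highest r was between SNHG12 and SNHG26 at 0.92 (Spearman rho 0.86), and 0.76 without the 2 libraries farthest from the median of SNHG12. Their counts were close in every library, at 370, 371, 429 and 355 for SNHG12 and 395, 401, 427 and 358 for SNHG26 in the SOX11 libraries, and 418, 568, 374 and 408 for SNHG12 and 432, 575, 394 and 432 for SNHG26 in the control libraries. The genes lie on chromosomes 1 and 7, and the longest exact stretch shared by their annotated transcripts is 15 bases. This pair was the highest of 45, and at 355 to 575 counts per library part of each deviation is counting noise. SNHG8 was next to both, with r of 0.76 to SNHG12 and 0.78 to SNHG26, which were 0.46 and 0.48 without the 2 libraries farthest from the median of SNHG8. SNHG4 and SNHG1, which differ in the direction of their fold change, had r of 0.83, which was 0.33 without the 2 libraries farthest from the median of SNHG1, so that value rests on those libraries. SNHG1 and SNHG15 had r of 0.75, which was 0.06 without the same 2 libraries. SNHG4 and SNHG15 had r of 0.69, which was 0.04 without the 2 libraries farthest from the median of SNHG4. SNHG6 had r of -0.59 with SNHG12 and -0.59 with SNHG26, which were -0.36 and -0.35 without the 2 libraries farthest from the median of SNHG6. For some pairs such a step raised r. That of SNHG1 and SNHG12 went from 0.36 to 0.76 without the 2 libraries farthest from the median of SNHG1.

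**Figure D4:**
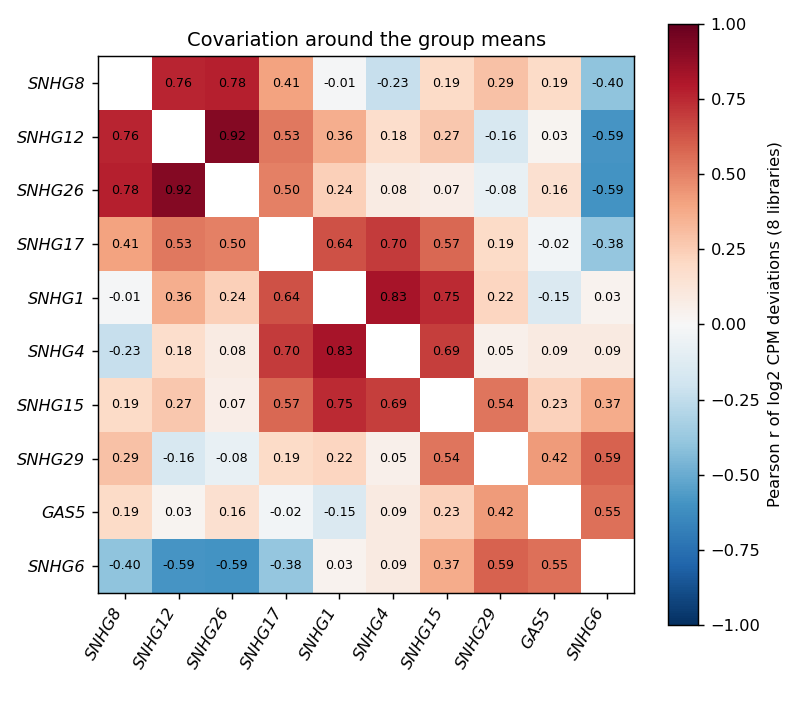
Pearson r of log2 CPM deviations from the group means over 8 libraries for each pair of the 10 hosts, with colours from -1 to 1. SNHG8, SNHG12 and SNHG26 share r from 0.76 to 0.92. Pairs among SNHG17, SNHG1, SNHG4 and SNHG15 have r from 0.57 to 0.83. These were 0.04 to 0.47 without the 2 libraries farthest from the median of the lower-numbered gene of each pair.

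Control replicate 3 was below the control mean for 10 of the 10 hosts, by 0.05 on the log2 scale on average, and control replicate 4 was above it for 9 of 10. SOX11 replicate 2 was above its group mean for 3 of 10. The 5 other genes whose deviations had the highest mean r with the hosts over the 8 libraries were ANGEL1, GPR3, TINAGL1, HAUS5 and GPX7, with mean r from 0.54 to 0.56. Of these, TINAGL1 was called lower, at 38.9 CPM in SOX11 libraries and 57.7 CPM in control libraries.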

How the data were processed

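Poly(A) RNA libraries of 8 DU145 samples were made with a stranded TruSeq kit, per the labels' protocols. A single matrix of unnormalized read counts, with genes as Ensembl identifiers, was deposited by the authors. The submitters' processing notes name cutadapt, FastQC, STAR 2.7.0e and GRCh38, without their roles. How reads were assigned to genes, with which annotation and strand option, is not given in the sources used here. Symbols matched 32053 of 32066 identifiers. Gene models are from GENCODE 29 (GRCh38), which holds 30159 of the identifiers.

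Counts were filtered with filterByExpr (minimum count 10), scaled by TMM and tested with edgeR 4.0.16 (robust quasi-likelihood, R 4.3.3) in a model of group alone, with Benjamini-Hochberg adjustment over 15665 genes. The SE was derived from the F statistic. The script was tested on simulated counts with changes larger than those of the called hosts, so that test does not cover changes of their size. Log2 CPM used a prior count of 2. The genes and lists were chosen with earlier results of these data known. From each list up to 4 called genes with the smallest adjusted p, or the most abundant gene where none was called, were named. Genes named beyond that (other noncoding hosts, remaining core proteins, overlapping neighbours) were chosen after their values were seen. Alternatives were RLE and upper quartile factors, library sizes without SOX11, no filter, a filter of 1 CPM in 4 libraries, DESeq2 1.42.0, limma-voom (limma 3.58.1), a replicate block and leaving out each library. Applying them to genes outside the 10 was chosen after seeing the data. No 2 libraries of a group agreed within sampling noise (chi-square per degree of freedom 1.43 to 3.25). EEF1G, MEG3, SNHG18 and SNHG33 were not analysed here.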

Additional observations from a re-analysis of the deposited data

Results flagged for a closer look

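Each host gene was examined in each group for a library standing apart from the other 3, and 2 of the 20 groups of 4 were marked, where chance marks about 1 in 20. SNHG17 in SOX11 replicate 2 was at 51.6 CPM, below the next library at 58.1 CPM, a gap of 0.843 of the group's range. SNHG29 in control replicate 3 was at 187 CPM, below the next library at 192 CPM, a gap of 0.918 of a narrow range. Without that library the log2 fold change was -0.21 for SNHG17 and -0.17 for SNHG29, and both genes were still called lower.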

How the results depend on the processing

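The number of host genes called was 8 in the main analysis and 7 to 8 when a library was left out. Without SOX11 replicate 2 or control replicate 4, SNHG4 was counted as higher and SNHG15 was lost. The number was 8 or 9 under the other alternatives. Of these, upper quartile factors, the stricter filter and the replicate block added SNHG4 as higher (edgeR adjusted p = 0.0354, 0.0467 and 0.0349). Genes called over all tested genes numbered 3130, and 2466 to 3057 when a library was left out. The block with the replicate number gave 2899 calls and 9 host genes. Same-numbered libraries had deviation correlations of -0.07 to 0.11, and differently numbered libraries -0.09 to 0.08. These values cannot show whether the samples were prepared in pairs, and the labels do not say. DESeq2 called 1010 genes higher and 1228 lower, against 1615 and 1515 in the main analysis. None of the 10 genes changed sign in the 16 alternatives run. The called genes lay 8.72% to 16.2% below control and the 10 genes rest on counts of 269 or more per library, and smaller differences in the less abundant hosts could not be resolved at this depth.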
